A study of Saccharomyces cerevisiae with 22 samples.

Results

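Sus1 is a small subunit shared by the SAGA co-activator complex, which modifies histones at transcribed genes, and by TREX-2, which couples transcription to mRNA export. The peaks described here are those of MYC-tagged Sus1 at the genes for small nucleolar and small nuclear RNAs of budding yeast. A peak was a member when its summit lay inside such a nuclear gene or within 300 bp of it, and more than 200 bp from any tRNA gene. The annotation holds 82 genes of this kind, 76 for snoRNAs and 6 for snRNAs, and 827 of the 106828 peaks in the 6 lists were members. The lists came from ChIP-exo, in which an exonuclease trims the precipitated DNA up to the cross-linked protein. The strain labelled spt7-deletion (spt7 below) after heat held 134 members among 20179 peaks, and at 25 °C it held 157 among 18085. The strain labelled spt8-deletion (spt8 below) held 134 among 17390 peaks after heat and 151 among 16593 at 25 °C. The wild type held 126 among 17694 peaks after heat and 125 among 16887 at 25 °C.

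All strains were BY4741 with SUS1-MYC and the alleles leu2Δ0, his3Δ1, met15Δ0 and ura3Δ0, grown in rich medium at 25 °C, and heat was 15 min at 37 °C. The study's strain list gives SUS1-MYC with a HIS3 marker in all of them and a KanMX4 marker at SPT7 or SPT8 in the mutants. Spt7 and Spt8 are SAGA subunits, and a form of SAGA that lacks Spt8 and carries a shortened Spt7 is named SLIK. The labels call the first mutant a deletion, whereas the study's strain list and text give a truncated Spt7. Between 7 and 8 summits lay in the SPT7 coding sequence in the spt7 lists, against 9 to 10 in the wild-type lists, which goes against a full deletion in the strain labelled spt7-deletion. SPT8 held 0 summits in its coding sequence in every list, the wild type included, and could not check its label. The labels name 3 replicates of each tagged condition, whereas the study's methods state fewer, and each condition has 1 list, so the spread between replicates is unknown and nothing was tested. The 4 no-tag samples were not analysed here. The lists also differ in depth, since the lowest local background at a member was 36.3 and 22.2 reads for spt7 after heat and at 25 °C, 28.8 and 7.99 reads for spt8, and 5.98 and 10.8 reads for the wild type.

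Small nucleolar RNAs guide the chemical modification of ribosomal RNA. Box C/D RNAs direct ribose methylation and box H/ACA RNAs direct the conversion of uridine to pseudouridine, and a few are needed for cleavage of the ribosomal precursor. In yeast most are transcribed by RNA polymerase II from promoters of their own, some as one precursor that carries several RNAs and is cut by the nuclease Rnt1, and some within introns of protein-coding genes. SNR52 and the U6 gene SNR6 are instead transcribed by RNA polymerase III, and the promoter elements of SNR52 lie in a leader before the mature RNA. Among the 76 snoRNA genes, 53 stood alone (26 box C/D and 27 box H/ACA), 15 lay in 4 clusters within 200 bp of each other on 1 strand, and 8 lay in introns. All 15 clustered genes were box C/D, as were 6 of the 8 intron-hosted genes.

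A few stretches of DNA lay under a peak of all 6 lists, a count made after seeing the data, and those that the results turn on are shown here from the RefSeq genome of the same build (sacCer3), 5′ to 3′ on the strand of the gene. Positions count from 0 at the first base of the RNA gene. For SNR52, the site at chr5:431311-431424 (minus strand, positions -204 to -91) is shown with the bases between the outermost of its 6 summits in capitals. For SNR128, chr10:139507-139691 (minus strand) is shown with the gene in capitals and the bases after its end in lower case. For SNR6 (chr12:366175-366347, plus strand), SNR59 (chr16:173827-173941, plus), SNR17A (chr15:780497-780597, plus), SNR30 (chr12:199326-199414, plus) and SNR51 (chr16:718462-718564, minus), capitals mark the stretch that a peak of every list covered.
SNR52: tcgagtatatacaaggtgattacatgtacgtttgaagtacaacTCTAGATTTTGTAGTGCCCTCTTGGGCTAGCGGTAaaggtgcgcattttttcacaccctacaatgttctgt
SNR6: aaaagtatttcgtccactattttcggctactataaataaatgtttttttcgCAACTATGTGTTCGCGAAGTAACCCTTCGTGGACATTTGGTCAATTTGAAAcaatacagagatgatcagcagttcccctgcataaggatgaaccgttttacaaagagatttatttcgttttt
SNR128: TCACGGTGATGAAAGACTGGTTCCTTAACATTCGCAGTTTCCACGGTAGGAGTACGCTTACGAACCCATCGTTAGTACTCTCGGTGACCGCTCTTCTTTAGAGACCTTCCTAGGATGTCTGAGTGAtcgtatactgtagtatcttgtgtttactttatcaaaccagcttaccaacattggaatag
SNR59: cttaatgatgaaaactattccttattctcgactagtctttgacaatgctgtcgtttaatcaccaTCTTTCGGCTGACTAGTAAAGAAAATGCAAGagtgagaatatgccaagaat
SNR17A: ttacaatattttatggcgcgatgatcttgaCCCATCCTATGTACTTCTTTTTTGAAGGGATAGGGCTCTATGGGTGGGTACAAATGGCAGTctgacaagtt
SNR30: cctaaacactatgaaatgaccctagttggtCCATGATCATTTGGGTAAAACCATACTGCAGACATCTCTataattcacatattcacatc
SNR51: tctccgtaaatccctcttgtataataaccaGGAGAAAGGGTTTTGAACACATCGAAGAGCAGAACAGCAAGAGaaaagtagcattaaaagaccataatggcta

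Most of these genes had a member peak in every list. After heat, 71 of 82 genes had one in spt7 (86.6%, 95% Wilson interval 77.6 to 92.3%), where 66.8% of all 16131 genome tiles of 748 bp held a peak. A tile has the width of the median gene with its flanks. At 25 °C the count in spt7 was 77 genes (93.9%, 86.5 to 97.4%), beside 63.8% of tiles. In spt8 it was 71 genes after heat (86.6%), beside 62.3% of tiles, and 79 genes at 25 °C (96.3%, 89.8 to 98.7%), beside 63.0% of tiles. In the wild type it was 67 genes after heat (81.7%, 72.0 to 88.6%), beside 66.4% of tiles, and 71 genes at 25 °C (86.6%), beside 63.8% of tiles. The share was thus 1.23 to 1.53 times that of the tiles, and its interval, which covers the number of genes only, lay above the tile share in all 6 lists. A peak in every list was found at 49 genes (59.8%), against 25.2% of tiles, and 0 genes lacked a peak throughout, against 9.54% of tiles.

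**Figure D1:**
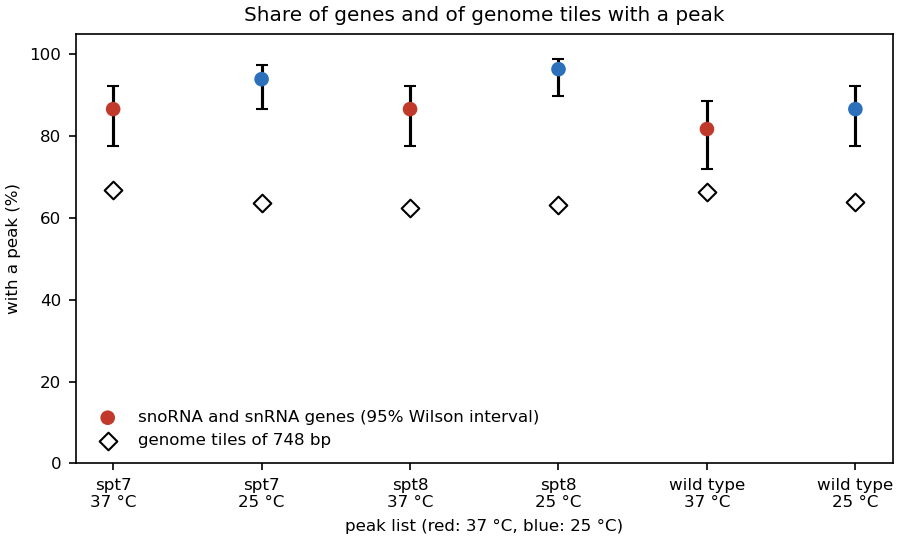
Share of snoRNA and snRNA genes with a member peak (filled points, with 95% Wilson intervals, in percent of 82 genes) and share of genome tiles of 748 bp with a peak (open diamonds), by strain and temperature. The gene shares run between 81.7% and 96.3% and the tile shares between 62.3% and 66.8%.

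The summits lay in the gene bodies more often than before them. Over the 6 lists the gene windows held 2.39 summits per kb on average, 1.64 times the density of the nuclear genome (range over lists 1.40 to 1.93). The ratio was 2.16 in the bodies (1.64 to 2.52), 1.63 in the 300 bp after them (1.29 to 2.12) and 1.22 in the 300 bp before them (1.12 to 1.27). For comparison, the ratio was 0.57 in the 300 bp before the start codons of protein-coding genes and 1.14 in coding sequence. Coding sequence held 15.1 to 27.6% of the member summits of a list, against 79.2 to 83.6% of all its summits. Outside coding sequence the windows had 2.21 summits per kb, against 0.92 per kb for all non-coding sequence. The first 50 bp after the gene's end had 0.88 times the genome density on average, with a range of 0.34 to 1.35 and values above the genome mean in both mutants at 25 °C, and the next 50 bp had 2.09 times (1.40 to 3.20). Just inside the limit of the window, between 251 and 300 bp from the nearest gene, the density was 1.99 summits per kb (80 summits), and just outside it, between 301 and 350 bp, it was 1.83 per kb (73 summits). In spt8 at 25 °C these counts were 19 and 8.

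The density in each part of the window was also taken by class, and it varied widely between the lists. At independent genes the mean density ratio was 1.10 before the gene, 1.96 in the body and 1.72 after it. At clustered genes the body averaged 3.11 (1.27 to 4.54), and the flanks outside the cluster's genes had 1.10 before and 1.23 after. At intron-hosted genes the mean was 2.14 before the RNA (1.15 to 2.76), 2.47 in it (1.77 to 3.52) and 1.28 after it. Their flanks reach into coding sequence, and of 5.82 kb of window 3.48 kb lay outside it. In that non-coding part the mean was 1.73 (1.21 to 2.54), beside 1.00 over all introns of the genome. At the snRNA genes the ratios were 1.06, 2.26 and 2.01. The small classes rest on few summits, 22 in the bodies of the intron-hosted genes and 44 in those of the clustered genes over all lists, and flanks of neighbouring genes overlap.

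**Figure D2:**
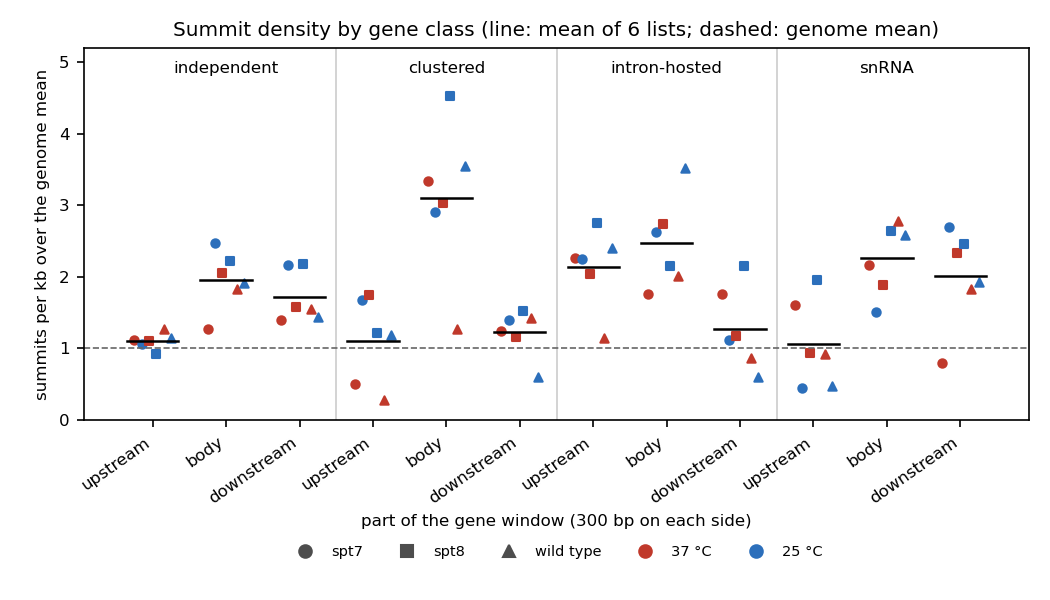
Summits per kb divided by the genome mean of the same list (1, dashed), for the 300 bp before the gene, the gene body and the 300 bp after it, in each class. Each point is a list (shape for strain, red for 37 °C, blue for 25 °C) and each line the mean of the 6 lists, which is highest in the bodies of clustered genes (3.11) and near 1 before independent genes (1.10).

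By class, all 6 snRNA genes had a peak in every list. They are SNR19 (U1, which pairs with the start of the intron), LSR1 (U2, which pairs with the branch point), SNR14 (U4), SNR6 (U6) and SNR7, whose long and short forms of U5 are annotated separately over the same locus. All 8 intron-hosted genes had a peak in each list except that of the wild type after heat, which had 7. The clustered genes had a peak at 15 of 15 in all 4 mutant lists, at 10 in the wild type after heat (66.7%, 41.7 to 84.8%), where 66.4% of tiles held one, and at 13 in the wild type at 25 °C (86.7%), beside 63.8% of tiles. When overlapping windows were merged, which was tried after seeing the data, the clustered loci had a peak in all 6 lists. A merged locus is wider than a tile, and no share of tiles of its width was taken. The merged result thus has no background, and the source of the lower wild-type counts was not tested. The independent genes had a peak at 42 of 53 in both mutants after heat (79.2%, 66.5 to 88.0%), at 48 in spt7 and 50 in spt8 at 25 °C, and at 44 in the wild type at either temperature. The intervals of the classes overlapped, and genes of a cluster share windows and so are not independent of each other.

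**Figure D3:**
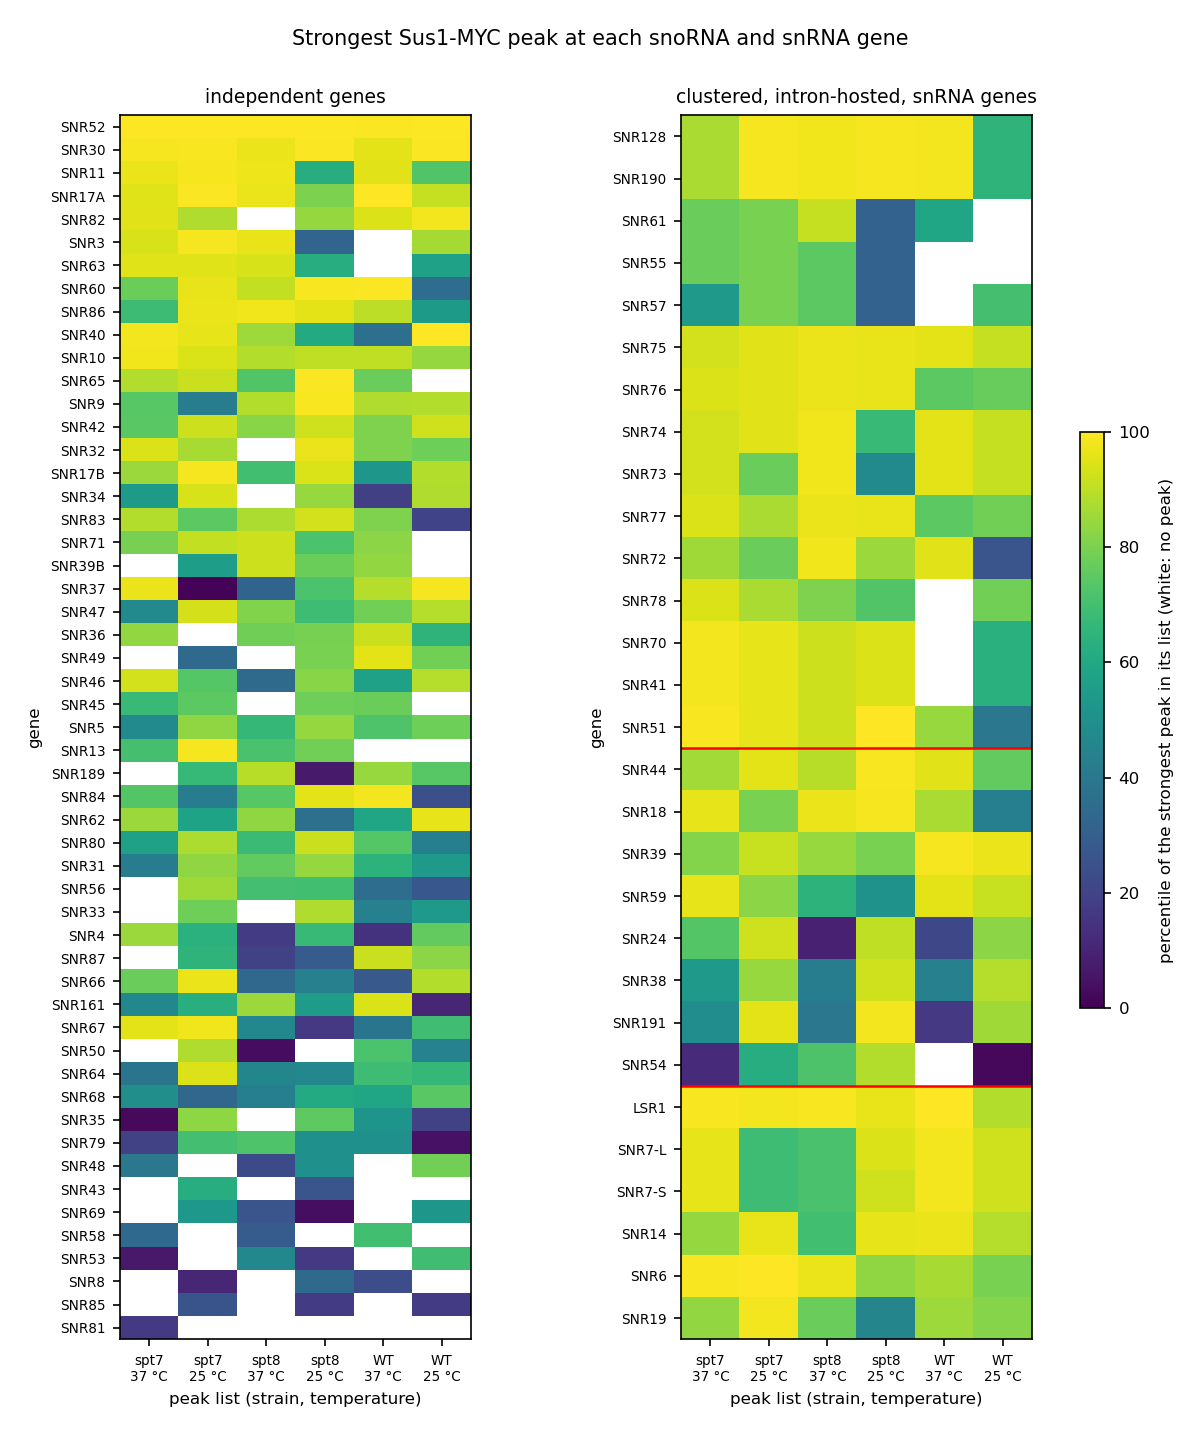
Percentile of the strongest member peak among all peaks of its list, for each gene (rows) and list (columns). Independent genes are on the left, and clustered, intron-hosted and snRNA genes stand in blocks divided by red lines on the right. White cells have no peak, and they are few outside the independent genes.

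Relative to all peaks of its list, the median member peak stood at the 67.5th percentile of fold enrichment in spt7 after heat and the 70.0th at 25 °C, the 65.4th and 62.5th in spt8, and the 66.9th and 60.5th in the wild type. The fold enrichment is the height of a peak over its local background in the same list, so its values describe a list and no order between lists was read from them. The percentile puts the lists on one scale. The interval of the median lay above the 50th percentile in every list, with its lowest bound at 50.2 in the wild type at 25 °C. Between 12.8% and 23.6% of member peaks were among the strongest 10% of their list. Medians changed little without the SNR6 and SNR52 peaks, at 60.1 to 70.0.

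SNR52, a box C/D methylation guide, had the strongest member peak of every list but one. The peak covering the site printed above had a fold enrichment of 16.1 (14.8 to 17.4, 95% Poisson interval of the height, counting error only) in spt7 after heat and 13.5 (12.0 to 15.1) at 25 °C. In spt8 the values were 8.78 (7.75 to 9.91) after heat and 14.9 (12.5 to 17.6) at 25 °C. In the wild type they were 9.32 (7.21 to 11.9) after heat and 17.2 (14.9 to 19.7) at 25 °C. All 6 peaks stood above the 99th percentile of their lists, between 99.25 and 99.98. Their summits lay 127 to 161 bp before the first base of the mature RNA. Another stretch under a peak of every list spanned positions 16 to 100, across the 3′ end of this gene of 92 bp. Over it, the wild-type summits were inside the RNA, at 42 after heat (fold enrichment 4.30) and at 22 at 25 °C (3.92). The spt8 summit at 25 °C was past the RNA, at 128 (5.45). In both spt7 lists and in spt8 after heat, the peak of the upstream site also covered this stretch.

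SNR6, the U6 gene and the other RNA polymerase III member, had its summits at the start of the RNA. In the 6 lists they fell between positions -3 and 16, a spread of 19 bp, the narrowest of the sites shared by all lists. The covering peak had a fold enrichment of 7.55 in spt7 after heat and 13.1 at 25 °C, 4.44 and 4.65 in spt8, and 5.39 and 2.86 in the wild type. Its height was 700 and 422 reads in spt7, 544 and 140 reads in spt8, and 70 and 153 reads in the wild type. Its percentile was 99.2 and 99.9 in spt7, 97.1 and 83.4 in spt8, and 86.8 and 37.9 in the wild type.

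LSR1, the long U2 gene of 1175 bp, had between 4 and 7 member peaks a list and the strongest member peak of the wild type after heat. Its strongest peak had a fold enrichment of 6.36 and 5.46 in spt7 after heat and at 25 °C, 6.13 and 6.52 in spt8, and 15.8 and 4.65 in the wild type. The median percentile of the strongest peak was 98.6 for LSR1, 93.8 for SNR7-L, 92.6 for SNR14, 92.0 for SNR6 and 82.7 for SNR19.

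Among the genes with a peak in every list, SNR52 had the highest median percentile (99.9), followed by SNR30 (98.9), LSR1 (98.6), SNR128 and SNR190 (98.2 each), SNR11 (96.3), SNR17A (95.9), SNR75 (95.6), SNR76 (94.99) and SNR51 (94.3). Each value is for the strongest of all peaks in the gene's window. Longer genes have longer windows, and neighbours in a cluster can share a peak. No allowance was made for either. SNR30 is a box H/ACA RNA needed for processing of the small ribosomal subunit's RNA. Its strongest peak had a fold enrichment of 5.45 and 6.59 in spt7 after heat and at 25 °C, 4.42 and 9.12 in spt8, and 6.88 and 7.90 in the wild type. SNR17A and SNR17B both encode U3, the box C/D RNA that pairs with the ribosomal precursor. SNR17A had 3.70 and 7.59 in spt7, 4.39 and 4.43 in spt8, and 11.5 and 4.91 in the wild type, and SNR17B had 3.06 and 6.03, 2.81 and 5.79, and 3.58 and 4.63. The U3 copies are near identical, and how the authors placed reads that fit both is not given in the sources used here.

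The 4 clusters were SNR190 with SNR128, SNR57 with SNR55 and SNR61, SNR78 to SNR72 with 7 genes, and SNR41 with SNR70 and SNR51. SNR128 encodes U14, which takes part in cleavage of the ribosomal precursor, and the other members are, like it, box C/D RNAs. The strongest peak near SNR128, shared with SNR190, had a fold enrichment of 3.17 and 5.77 in spt7 after heat and at 25 °C, 4.83 and 7.75 in spt8, and 8.17 and 3.51 in the wild type. In the 7-gene cluster, SNR76 and SNR75 in its middle had median percentiles of 94.99 and 95.6, and SNR78 and SNR72 at its ends had 80.8 and 85.3. Neighbouring windows overlap and share peaks. SNR76 and SNR75 had the same strongest value in spt7 at 25 °C (4.45) and in spt8 after heat (4.47) and at 25 °C (6.48). Genes in the middle have neighbours on both sides, so no trend along the cluster was read. The cluster of SNR57, SNR55 and SNR61 was weaker, with medians of 70.5, 75.9 and 77.0, and SNR55 had no peak in either wild-type list. SNR51 had 5.74 and 4.61 in spt7 after heat and at 25 °C, 3.69 and 12.1 in spt8, and 5.16 and 2.89 in the wild type. Its percentiles were 98.9 and 96.2 in spt7, 92.4 and 99.8 in spt8, and 84.5 and 39.5 in the wild type.

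The intron-hosted genes were SNR18 in EFB1, SNR38 in TEF4 (both hosts encode translation elongation factors), SNR39 in RPL7A, SNR59 in RPL7B, SNR44 in RPS22B and SNR24 in ASC1 (hosts that encode ribosomal proteins or a ribosome-bound protein), SNR191 in NOG2 (a GTPase of large-subunit assembly) and SNR54 in IMD4 (an enzyme of guanine nucleotide synthesis). The highest median percentiles were 92.3 for SNR44 and 91.9 for SNR18, and the lowest was 62.2 for SNR54, which had no peak in the wild type after heat. SNR44 had a fold enrichment of 3.11 and 4.57 in spt7 after heat and at 25 °C, 3.48 and 8.67 in spt8, and 6.74 and 3.91 in the wild type. Since RPL7A and RPL7B are close copies, reads of their shared exons cannot be assigned to one of them with certainty.

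In each strain fewer genes had a peak after heat than at 25 °C. Each difference is between single lists, with no replicate error, so its range over the other settings tried is given beside it. Between spt7 after heat and at 25 °C, 5 genes had a peak only after heat (15.0% of tiles did) and 11 only at 25 °C (11.9% of tiles). The difference was -7.32 percentage points, and it was between -15.9 (windows of 150 bp) and -3.66 (windows of 500 bp) in the other settings. Between the spt8 lists, 2 genes had one only after heat (15.2% of tiles) and 10 only at 25 °C (15.9% of tiles), a difference of -9.76 points, and between -11.8 (overlapping windows merged) and -6.10 (-log10 q of at least 5, and the 5000 strongest peaks) in the other settings. Between the wild-type lists, 7 genes had one only after heat (17.6% of tiles) and 11 only at 25 °C (15.0% of tiles), a difference of -4.88 points, and between -7.32 and 1.22 in the other settings. Over the tiles the difference was 3.07, -0.74 and 2.60 points for spt7, spt8 and the wild type. The wild-type difference did not hold when overlapping windows were merged (0.00 points), with windows of 500 bp (1.22 points) or among the 5000 strongest peaks (1.22 points). All of the mutants' changes with heat were at independent genes, because every gene of the other classes had a peak in every mutant list. In the wild type 5 of the 18 changes were at clustered genes, which are 15 of the 82 genes, and 1 was at an intron-hosted gene. The classes are therefore not compared in their change with heat. In spt8, 17 of 27 independent box H/ACA genes had a peak after heat, against 26 at 25 °C, while the box C/D counts were 25 and 24 of 26. The 17 genes are 63.0% (44.2 to 78.5%), near the 62.3% of tiles with a peak in that list. In spt7 the H/ACA counts were 21 after heat and 25 at 25 °C, and in the wild type 23 and 24.

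As a share of all peaks of the list that lay away from tRNA genes, members were 0.676% after heat (0.571 to 0.800%) and 0.886% at 25 °C (0.759 to 1.04%) in spt7. The shares were 0.788% and 0.931% in spt8 and 0.727% and 0.755% in the wild type, with intervals that overlapped in each strain and cover counting error only. The density ratio after heat was 0.76 times that at 25 °C in spt7, 0.85 times in spt8 and 0.96 times in the wild type. SNR58, a box C/D guide, was the 1 gene with a peak only after heat in all 3 strains, as were 0.899% of tiles. SNR85, a box H/ACA guide, was the 1 gene with a peak only at 25 °C in all 3 strains, as were 0.763% of tiles. Neither was strong, with median percentiles of 34.4 and 17.7.

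The mutant lists had peaks at more of the genes than the wild-type lists, after heat in some settings only. After heat, spt7 had a peak at 12 genes that lacked one in the wild type (14.7% of tiles) and lacked one at 8 that had it in the wild type (14.3% of tiles). At 25 °C the numbers for spt7 were 9 (14.7% of tiles) and 3 (14.8% of tiles). For spt8 they were 12 (12.9% of tiles) and 8 (17.0% of tiles) after heat, and 9 (15.4% of tiles) and 1 (16.2% of tiles) at 25 °C. The differences were 4.88 points for each mutant after heat, 7.32 points for spt7 at 25 °C (2.44 to 17.1 in the other settings) and 9.76 points for spt8 at 25 °C (6.10 to 12.2). The differences after heat turned to -2.94 points for both mutants when overlapping windows were merged and to -2.44 points with windows of 500 bp. Of the 12 genes with a peak after heat in spt7 and not in the wild type, 5 were clustered, and the same 5 were among the 12 for spt8. Clustered genes were 15 of all 82. With overlapping windows merged, the clustered loci had a peak in every list, but such a locus is wider than a tile and has no background of its width. Genes of a cluster share windows and were counted one by one here. The comparisons of both mutants share the wild-type lists. The depth of the lists moved with the strain at some temperatures, and its part in these differences was not tested.

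Sites were listed again more often at these genes than elsewhere. A median of 57.7% of the member peaks of a list overlapped a member peak of another list by at least 1 bp, against 39.5% for all peaks, and the share was higher in 30 of 30 ordered pairs of lists. Between 18.7% and 21.6% of the members of a list were met in every other list, against 4.61 to 5.85% of all peaks. In the gene windows 24 stretches at 17 genes lay under a peak of all 6 lists, which is 41.6 per 100 kb, against 3.98 per 100 kb over the genome (475 stretches). Without SNR52, SNR6 and LSR1, a count chosen after seeing the data, there were 18, or 33.0 per 100 kb. Of the 24 stretches, 12 lay within the gene body, 6 after it, 4 across its 3′ end, 1 across its 5′ end (SNR6) and 1 before it (SNR52). Stretches can share a covering peak, as at LSR1, and so are not separate events. Member peaks were wider than all peaks in every list, with medians of 65.5 to 93 bp against 49 to 72 bp, and summits were denser. No allowance was made for width or density, and their part in the overlaps and stretches was not tested.

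**Figure D4:**
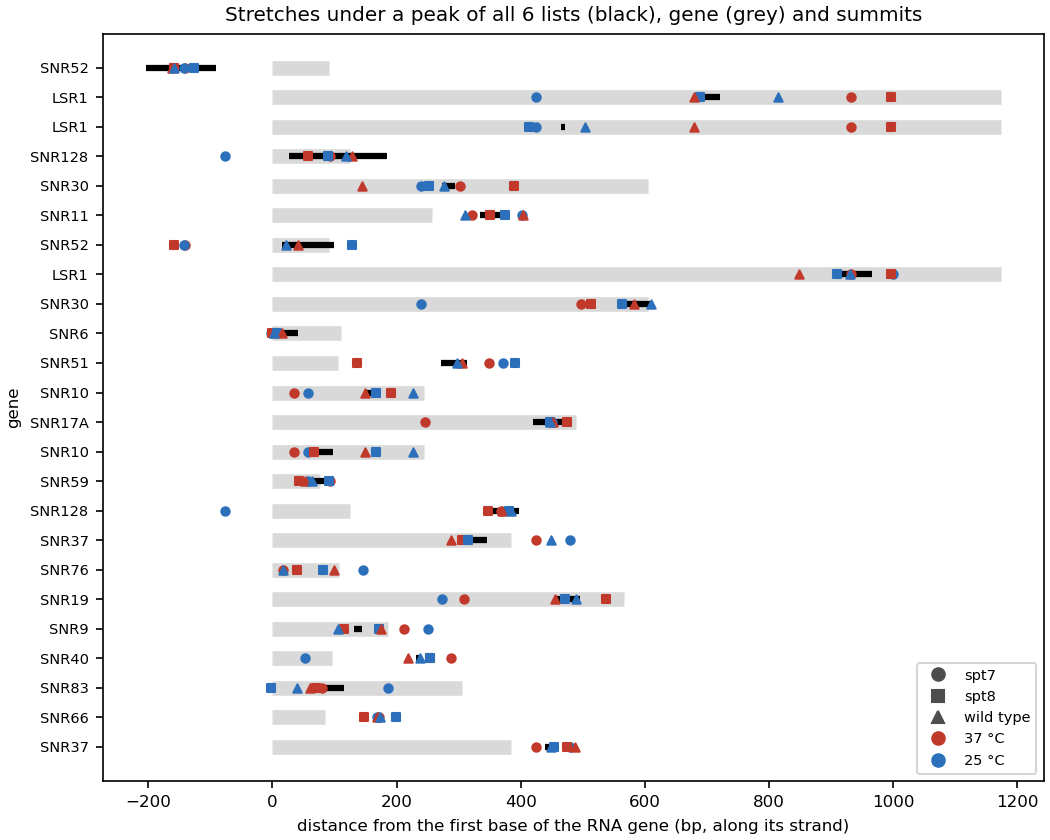
The 24 stretches under a peak of all 6 lists (black bars), drawn against the gene (grey bars), with the summit of each list's covering peak (shape for strain, red for 37 °C, blue for 25 °C). The horizontal axis is the distance in bp from the first base of the RNA gene, and the summits of SNR52 upstream of the gene and of SNR6 at its start lie closest together.

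Some of the shared stretches lay at the 3′ end of the RNA or past it. In SNR17A it spanned positions 420 to 480 of a gene of 490 bp, and 5 of the 6 summits lay between 448 and 474, with that of spt7 after heat at 246. In SNR59 it spanned positions 64 to 94, from the last bases of the gene into the intron of RPL7B, with all summits between 43 and 93. In SNR128 one stretch ran from position 26 to 184, from inside the gene of 126 bp to beyond its end, and the summits of its covering peaks were spread from -77 to 128. At SNR51 the stretch lay at 272 to 314, well past the end of the gene of 107 bp. The summits of its covering peaks were spread from 136 to 391, and at least 1 of them lay in annotated coding sequence.

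Known promoter motifs were counted as exact matches on both strands in the 300 bp before the first base of each RNA gene. For genes with coding sequence the 300 bp before the start codon were taken, so the windows compared start from unlike points of a gene. ACCCTAA, bound by Tbf1, a factor of snoRNA promoters, was present before 9.43% of independent genes (5 of 53), against 2.36% of the 6008 genes with coding sequence. TTACCCG, bound by Reb1, was present before 18.9% (10 of 53), against 7.89%, and TATAAA before 83.0% (44 of 53), against 48.2%. The Rap1 motif was found before 0 of 53, against 0.749%, and GTTCGANTC, a form of the RNA polymerase III box B, before 1 of 53 (1.89%), against 0.866%. That 1 gene was SNR33 and not SNR52, with the match at position -175 and 0 summits within 50 bp of it. Matches of different motifs were counted whether or not they overlapped. An upstream summit was listed, averaged over the lists, at 33.3% of the independent genes with the Tbf1 motif and 41.3% of those without it, at 51.7% with and 38.0% without the Reb1 motif, and at 39.4% with and 46.3% without TATAAA.

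The proteins that act on these RNAs were looked at through the 300 bp before their start codons. Of 16 genes, 8 and 5 had a peak there in spt7 after heat and at 25 °C, 3 and 1 in spt8, and 4 and 3 in the wild type. Over all genes with coding sequence the shares were 20.7 and 18.6% in spt7, 21.0 and 22.8% in spt8, and 25.6 and 21.3% in the wild type. The 4 core proteins of box C/D particles (NOP1, NOP56, NOP58 and SNU13) and the 4 of box H/ACA particles (CBF5, NHP2, NOP10 and GAR1) had a peak in 0 or 1 list each. NRD1, which acts in termination of snoRNA transcripts, had one in 5 lists, and RRP6, a nuclease that trims their ends, in 4. RNT1 and TGS1 had one in 3 lists, NAB3 and LRP1 in 2, SEN1 in 1 and TBF1 in 0. The number of lists per gene was not counted over all genes with coding sequence. These counts thus have no background, and no contrast between core and processing genes was read from them.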

How the data were processed

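The authors mapped ChIP-exo reads to sacCer3 with BWA (0.6.2 in the submitters' processing notes, another version in the paper) and deposited 1 peak list per condition in the layout of MACS2. The deposited columns are the fold enrichment (a ratio over the local background), -log10 p-value, -log10 q-value, a score of 10 times -log10 q, and positions. Which program called the peaks, against what control and from which replicates, is not given in the sources used here. Summits were placed on the RefSeq annotation of the same build. Heights came from solving fold enrichment and p for a Poisson background, to within 0.001 in -log10 p. Intervals are Wilson (shares), Poisson (heights), order-statistic (medians) or a normal approximation (differences between lists), all 95%. Named genes were the snRNA, clustered and intron-hosted genes, SNR52, SNR30, U3, U14 and SNR190, the 10 strongest with a peak in all lists, each list's strongest, and those with the same heat change in every strain. Others named among changes, sites or motif matches were chosen after their values were seen. Members and lists were chosen with earlier results of these data known. Python 3.11.15, numpy 2.4.6, pandas 2.3.3, scipy 1.17.1 and matplotlib 3.10.9 were used, and the counting was tested on simulated data. Alternatives were other windows, tRNA limits, cluster gaps, overlaps, q and peak-number thresholds and the peak midpoint. Merged windows, counts without single genes and the stretches shared by all lists were added after seeing the data.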

Additional observations from a re-analysis of the deposited data

How the results depend on the processing

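The gene shares, their ratios to the tiles, the density ratios, the class means and the changes between lists kept within their intervals, which cover the number of genes or summits only, with the peak midpoint, without the tRNA limit and with a tRNA limit of 500 bp, as did the class means with a cluster gap of 500 bp, the median percentiles by -log10 q and those without SNR6 and SNR52, a setting chosen after seeing the data. Without SNR52, SNR6 and LSR1, also chosen after seeing the data, the ratio of shared stretches per kb to the genome was 8.30, against 10.5 with them. Lists are given in the order spt7 after heat, spt7 at 25 °C, spt8 after heat, spt8 at 25 °C, wild type after heat, wild type at 25 °C. With windows of 150 bp the share was 72.0% in the first, 76.8% in the third and 84.1, 67.1 and 72.0% in the last 3, the ratio was 1.77 in the second and 1.61, 1.78, 1.34 and 1.50 in the last 4, and spt7 at 25 °C exceeded the wild type by 15.9 points. With windows of 500 bp the share was 92.7% in the first and 92.7, 100, 95.1 and 93.9% in the last 4, the ratio was 1.27 for spt7 and 1.32 for spt8 at 25 °C, the density ratio of spt8 at 25 °C was 1.60, and the mean share of independent genes was 93.1%. With -log10 q of at least 5 the ratio was 1.57 for spt7 and 1.72 for spt8 at 25 °C, and 1.41 and 1.46 for the wild type. With every list cut to 16593 peaks it was 1.40 and 1.55 for spt7. Among the 5000 strongest peaks the shares were 56.1, 70.7, 56.1, 62.2, 54.9 and 53.7%, the ratios 2.32, 2.93, 2.34, 2.49, 2.17 and 2.13, and the density ratios 2.37, 3.43, 2.28, 2.87, 2.46 and 2.29. There the mean shares of independent and intron-hosted genes were 49.7 and 66.7%, and spt7 at 25 °C exceeded the wild type by 17.1 points. With overlapping windows merged, chosen after seeing the data, the mean share of clustered loci was 100%. With a reciprocal overlap of 50% the median overlap was 20.8%, against 14.8% for all peaks, and higher in 29 of 30 ordered pairs. The density ratio was lower after heat in all 3 strains in the settings tried, except that it was 1.07 times that at 25 °C in the wild type with -log10 q of at least 5 and among the 5000 strongest peaks. The causes of these shifts were not tested. No paired analysis was possible because each condition has 1 list, and for the same reason no replicate could be left out. With 1 list per condition, a gene without a peak is one where none was listed at the depth of that list.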

Other observations

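Other stable non-coding RNA genes were looked at after seeing the data, with the same 300 bp window but without the tRNA limit. At SCR1, the RNA of the signal recognition particle and an RNA polymerase III gene, the strongest peak had a fold enrichment of 16.99 and 10.1 in spt7 after heat and at 25 °C, 6.76 and 14.6 in spt8, and 9.01 and 10.02 in the wild type, between the 99.05th and the 99.97th percentile of their lists. At RPR1, the RNA of RNase P and also an RNA polymerase III gene, it had 7.001 and 5.23 in spt7, 8.68 and 8.08 in spt8, and 7.55 and 2.96 in the wild type, above the 97th percentile in all lists but the wild type at 25 °C, where it was at 41.9. At TLC1, the telomerase RNA, percentiles ran from 53.7 to 95.3. NME1, the RNA of RNase MRP, had no peak in spt8 and wild type after heat and percentiles of at most 74.8 elsewhere. Its window takes in the member gene SNR66.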
